A study of Mus musculus with 15 samples.

Results

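Broad H3K4me3 domains of EL4 cells, an established mouse T lymphoma line of C57BL/6N origin, were chosen by the width of their called H3K4me3 intervals. The intervals of both ChIP-seq replicates were combined, overlapping or adjoining intervals were merged, and autosomal peaks of at least 3500 bp with intervals of both replicates were kept. This left 881 domains among 16567 autosomal peaks with intervals of both replicates, or 5.32% of the peaks and 15% of their base pairs. Domains were compared with 6482 H3K4me3 peaks of 1000 to 2000 bp. All cells were untreated EL4 cells, and 2 replicates each were available for H3K4me3, H3K9ac, H3K27ac, H3K36me2, H3K27me3 and ATAC-seq, a measure of open chromatin. The methods of the study call the merged replicates technical, so each SD below covers the spread between libraries and not between cultures. The lists give positions alone, and the depth behind a peak is unknown.

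Trimethylation of histone H3 lysine 4 is laid down at gene starts by the SET1 and MLL methyltransferases and marks promoters that are active or poised. At most genes it spans a few nucleosomes downstream of the start. At some genes it extends far into the gene body, and such broad domains are known for genes that define a cell type and for tumour suppressors. Acetylation of lysines 9 and 27 accompanies active promoters and enhancers, trimethylation of lysine 27 is the mark of Polycomb repression, and dimethylation of lysine 36 covers gene bodies and intergenic regions away from active starts.

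The labelled cell type was compared with short lists of lineage markers, chosen with earlier results of these data known and so no independent check. All 11 T lineage markers had an H3K4me3 peak over a start, and 6 of them (Bcl11b, Cd3d, Gata3, Lat, Tcf7 and Thy1) lay in a broad domain. Of 12 B lineage markers none had such a peak, and of 12 myeloid markers Irf8 alone did, in a peak under the width limit. The longer T cell lists used below were not fully marked. A peak over a start was found for 15 of 22 surface genes, 17 of 20 signalling genes and 20 of 26 transcription factors.

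DNA sequence is shown for 4 starts with a broad domain that differ in CpG density. The 250 bases before the start are given as listed by RefSeq for GRCm38.p6, 5′ to 3′ on the strand of the gene, with each CpG in capitals. The 4 were picked from the 6 eligible starts at the widest domains, with their CpG counts known, to show both ends of the range of these 6. They belong to Irf2bp2, a transcriptional corepressor (chr8:126593987-126594236, minus strand), Bcl2, an inhibitor of apoptosis (chr1:106714291-106714540, minus strand), Btg1, an antiproliferative factor (chr10:96616751-96617000, plus strand), and Ccr9, a chemokine receptor of thymocytes (chr9:123766961-123767210, plus strand).
Irf2bp2: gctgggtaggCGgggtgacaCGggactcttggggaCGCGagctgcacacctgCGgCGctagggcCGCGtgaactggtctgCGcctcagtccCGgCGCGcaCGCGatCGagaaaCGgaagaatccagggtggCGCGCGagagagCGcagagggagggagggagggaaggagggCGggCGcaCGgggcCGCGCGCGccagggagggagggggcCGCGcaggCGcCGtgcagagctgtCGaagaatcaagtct
Bcl2: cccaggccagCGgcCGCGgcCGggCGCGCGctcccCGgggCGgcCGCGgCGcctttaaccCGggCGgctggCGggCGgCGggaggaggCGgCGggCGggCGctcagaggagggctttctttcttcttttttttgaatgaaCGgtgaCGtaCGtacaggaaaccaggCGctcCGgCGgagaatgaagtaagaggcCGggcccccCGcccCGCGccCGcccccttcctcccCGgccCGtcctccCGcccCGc
Btg1: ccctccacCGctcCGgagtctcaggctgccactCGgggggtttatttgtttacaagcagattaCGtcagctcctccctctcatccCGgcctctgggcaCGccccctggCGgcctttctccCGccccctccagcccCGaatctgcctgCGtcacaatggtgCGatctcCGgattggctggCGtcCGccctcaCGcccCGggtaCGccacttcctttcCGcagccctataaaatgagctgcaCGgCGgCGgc
Ccr9: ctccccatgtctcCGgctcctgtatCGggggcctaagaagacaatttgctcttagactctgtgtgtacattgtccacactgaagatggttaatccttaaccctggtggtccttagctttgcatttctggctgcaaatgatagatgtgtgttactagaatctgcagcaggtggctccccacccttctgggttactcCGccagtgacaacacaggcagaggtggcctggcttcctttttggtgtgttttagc
The stretches of Bcl2 and Irf2bp2 hold 36 and 32 CpG, that of Btg1 holds 21, and that of Ccr9 holds 3. The Btg1 stretch also contains TATAAA, beginning 26 bases before the start.

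Across the members, 821 RefSeq promoters of 642 protein-coding genes (300 bases each, 250 before to 50 after the start) began inside a broad domain. They had a median of 25 CpG and 64.7% GC, against 21 CpG and 60.3% for 3904 promoters in peaks of 1000 to 2000 bp, and 14 CpG and 57% for all 20085 autosomal promoters. A ratio of observed to expected CpG over 0.6 was found in 77.2% of promoters in domains, 78.8% in the narrower peaks and 48.9% of all. The dense end of the distribution was thus where the classes differed, with upper quartiles of 35 and 27 CpG and the same lower quartile of 15. CGGAAG, the core of ETS factor sites, was present on either strand in 26.3% of promoters in domains, 38.8% of those in the narrower peaks and 21.5% of all promoters. TATAAA, the core of the TATA box, was present in 5.97% of promoters in either class and in 12.7% of all. TGTGGT, the core of RUNX sites, was found in 10.1%, 13.0% and 14.8% in the same order. AGATAA, a core of sites for Gata3 and its relatives, was found in 5.60%, 6.12% and 9.57%, and TTCAAAG, a TCF core, in 3.41%, 3.48% and 4.45%. These shares count letters in a fixed window, and no test was run on them.

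Most domains were little wider than the limit. Of the 881, 345 were under 4000 bp, 327 were from 4000 to under 5000 bp, 163 from 5000 to under 7000 bp, 36 from 7000 to under 10000 bp, and 10 were wider. The median was 4193 bp, with quartiles of 3778 and 4955 bp and a highest value of 14114 bp. Just inside the limit lay the domains at Anp32e (3501 bp), a histone chaperone gene, at Ewsr1 and Rhbdd3 (3500 bp), and at H3f3b (3500 bp), a gene of histone H3.3. Just outside it lay peaks at Snx13 (3498 bp), at Tti2 and Snord13 (3496 bp), and at Cerk (3496 bp), the ceramide kinase gene. The replicates gave nearly the same extents. The number of base pairs covered differed between replicates by a median of 74 bp per domain and at most 626 bp, and 708 domains were 1 unbroken interval in both. Taken alone, replicate 1 held 798 intervals of at least 3500 bp and replicate 2 held 771.

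The widest domain lay at Tcf7, which encodes TCF-1, a transcription factor of early T cell commitment. It spanned chr11:52272867-52286980, or 14114 bp, of which replicate 1 covered 14114 bp and replicate 2 covered 13802 bp. The domains at Irf2bp2 (13709 bp) and at Ikzf1 (13571 bp), which encodes the lymphoid zinc finger factor Ikaros, were nearly as wide. Ikzf2, which encodes the related factor Helios, had a domain of 11169 bp, and Gata3, a further T lineage factor, a domain of 9210 bp (9210 bp in replicate 1 and 9064 bp in replicate 2). Genes of signalling were also among the 20 widest. The domain at Fyb, an adaptor of T cell receptor signalling, measured 10449 bp. The domain at Gpr55, a receptor for lysophospholipids, measured 11427 bp.

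Antigen receptor loci made up 3 of the 20 widest. A domain of 12124 bp held the starts of Trgc4, Trgj4, Trgv1 and Trgv2, segments of the T cell receptor gamma locus. A second domain of 9361 bp, next to it, held the start of Stard3nl, a gene of a late endosomal protein. It also held an end of Tcrg, the locus as a whole, which was counted as a possible start. The third, of 9053 bp, held Ighm, the constant region of IgM, with Ighd4-1 and Ighj1 to Ighj4. A further 9 of the widest 20 ranged from 8240 to 10988 bp. They held Gm23834, Abhd13 with Lig4 (a DNA ligase of end joining), Pcdh7 (a protocadherin), Lpxn with Zfp91 (an adhesion adaptor and a zinc finger protein), Arpp21 (an RNA-binding phosphoprotein), Scd2 (a fatty acid desaturase), Rhof with Setd1b (a small GTPase and an H3K4 methyltransferase), Malat1 (a nuclear long noncoding RNA) and, in 1 case, no gene start.

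**Figure D1:**
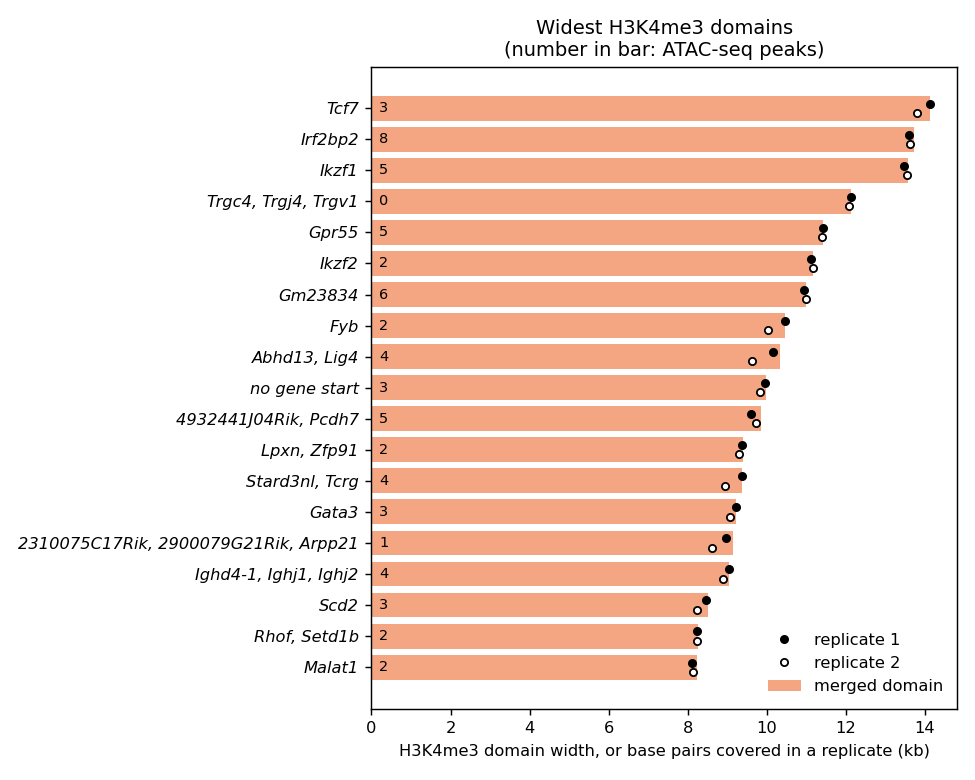
Width of 19 of the 20 widest H3K4me3 domains in kb (bars), with the base pairs covered in replicate 1 (filled points) and replicate 2 (open points), labelled by the genes whose start they hold. Replicate points sit at or just under the end of each bar, and the number of ATAC-seq peaks inside runs from 0 at the T cell receptor gamma segments to 8 at Irf2bp2.

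T lineage genes were found in broad domains across receptors, signalling and transcription factors. The background was 3.79% of 20665 autosomal protein-coding genes with a start in a domain, or 8.51% of the 9196 with a start in any H3K4me3 peak of both replicates. Of 22 genes of the T cell receptor complex and T cell surface, 15 had a peak over a start and 7 (31.8%) were in a domain. Their domains ranged from 4029 bp at Il7r, the interleukin 7 receptor, to 6642 bp at Ccr9. Cd3d, a subunit of CD3, lay in a domain of 5517 bp (5507 bp in replicate 1 and 5434 bp in replicate 2), whereas its neighbours Cd3e and Cd3g lay in peaks of 1998 and 2553 bp. The others were Cd28 (costimulation), Thy1 (a surface glycoprotein), Ptprc (the phosphatase CD45) and Cxcr4 (a chemokine receptor). Cd4, Cd8a and Cd8b1, the coreceptor genes, had no H3K4me3 peak of both replicates over a start.

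Of 20 genes of proximal T cell receptor signalling, 17 had a peak and 7 (35.0%) were in a domain. Besides Fyb these were the adaptors Lat (4131 bp), Lcp2 (4658 bp) and Skap1 (4085 bp), Rasgrp1 (5519 bp, an activator of Ras), Themis (4755 bp, a regulator of thymocyte selection) and Ptpn22 (3847 bp, a phosphatase). The kinase genes Lck and Zap70 lay in peaks of 2876 and 3268 bp, under the limit. Of 26 T lineage transcription factors, 20 had a peak and 10 (38.5%) were in a domain. These included Bcl11b (7866 bp) and Zbtb7b (8137 bp), zinc finger factors of T cell commitment and of the CD4 lineage, Tox (7426 bp), Gfi1 (5689 bp), Myb (4081 bp), Lef1 (3903 bp) and Foxp1 (3641 bp). Runx1, Runx3 and Foxo1 lay in peaks of 3425, 3103 and 3495 bp, the last within 5 bp of the limit. Ets1 and Rora had no peak over an annotated start, but their gene bodies were touched by peaks of 3042 and 2793 bp. Ikzf3, whose strand was not known, had a peak of 2427 bp over a gene end and a domain of 4548 bp elsewhere on the gene.

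Genes of growth control and chromatin were in domains as well. Of 18 tumour suppressors and cell cycle inhibitors, 16 had a peak and 6 (33.3%) were in a domain, namely Btg1 (7614 bp), Cdkn2c (5984 bp) and Cdkn1b (4988 bp), both inhibitors of cyclin-dependent kinases, Socs1 (4955 bp, an inhibitor of cytokine signalling), Trp53 (4577 bp, the p53 gene) and Btg2 (4135 bp). Nf1, an inhibitor of Ras, had a peak of 2099 bp at its start and a domain of 4378 bp elsewhere on the gene. Of 20 leukemia oncogenes, 6 had a peak and 4 (20%) were in a domain, which were Myc (6617 bp), Bcl2 (6357 bp), Ccnd2 (4707 bp, cyclin D2) and Pim1 (4033 bp, a kinase). Tal1, Tlx1, Tlx3, Lmo1 and Lmo2, transcriptional oncogenes of T cell leukemia, had no peak. Of 28 histone modifying enzymes, 26 had a peak and 10 (35.7%) were in a domain. They comprised the H3K4 methyltransferases Setd1b, Kmt2a (4741 bp), Kmt2c (3649 bp) and Kmt2d (4284 bp), the demethylases Kdm6b (6382 bp) and Kdm2b (4651 bp), the acetyltransferase Kat2b (5038 bp), the deacetylase Hdac7 (3651 bp), the H3K27 methyltransferase Ezh2 (3743 bp) and the H3K36 methyltransferase Nsd2 (4157 bp). Of 21 immediate early and stress genes, 5 (23.8%) were in a domain, which were Junb (6505 bp, an AP-1 subunit), Zfp36l2 (4508 bp, an RNA-binding protein), Ier2 (4140 bp), Hspa8 (3976 bp, a constitutive chaperone) and Dusp2 (3523 bp, a phosphatase of MAP kinases). Jund, a further AP-1 subunit, was touched by a domain of 3641 bp that held none of its annotated starts.

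Shares lower than in the lists above were found for ribosomal protein and oxidative phosphorylation genes and for the lists of other lineages and tissues. Of 66 cytosolic ribosomal protein genes, 56 had a peak and 4 (6.06%) were in a domain, which were Rps12 (4347 bp), Rpl7 (3974 bp), Rpl7a (3804 bp) and Rpl30 (3589 bp). Of 29 nuclear genes of oxidative phosphorylation, 25 had a peak and 0 were in a domain, as were 0 of 12 B lineage, 0 of 12 myeloid and 0 of 20 developmental genes outside the T lineage. Of the last group, Hoxa13 came closest, with a peak of 3417 bp. Taken over genes with a peak, the highest shares in a domain were 66.7% (4 of 6 leukemia oncogenes), 50% (10 of 20 transcription factors) and 46.7% (7 of 15 surface genes). The lowest were 7.14% (4 of 56 ribosomal protein genes) and 0 (of 25 oxidative phosphorylation, 5 developmental and 1 myeloid genes). The share was 8.51% for all such genes, near that of ribosomal protein genes. The leukemia oncogene, developmental and myeloid lists (6, 5 and 1 genes with a peak) hold too few such genes to be set beside it. These counts describe lists and were not tested.

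**Figure D2:**
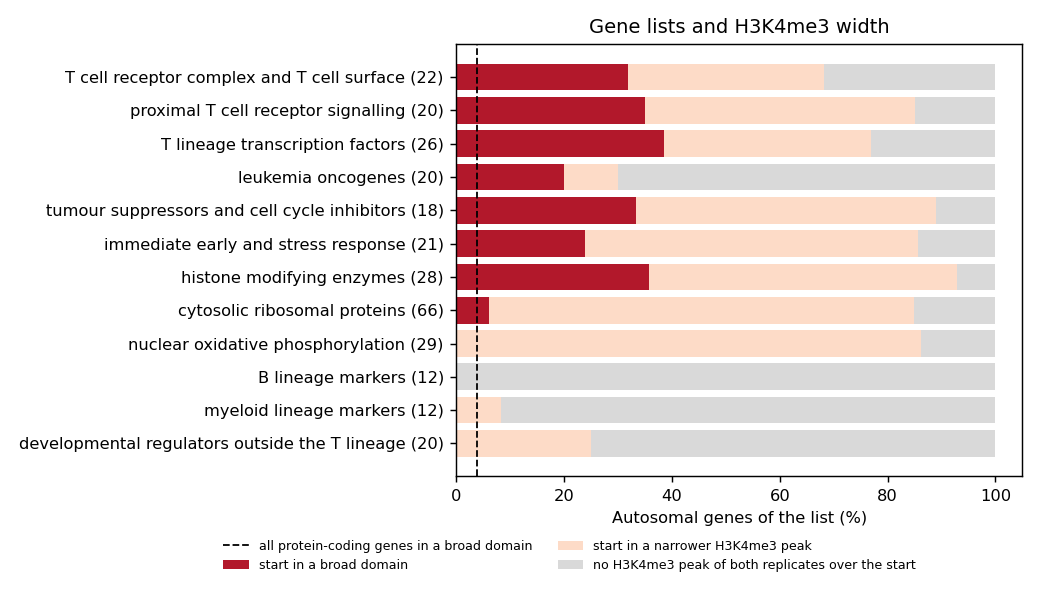
Share of the autosomal genes of each list (number in brackets) with a start in a broad domain, in a narrower H3K4me3 peak, or in no H3K4me3 peak of both replicates. The T lineage lists, tumour suppressors and histone modifying enzymes stand between 31.8 and 38.5%, to the right of the dashed line at 3.79% for all protein-coding genes, and oxidative phosphorylation, B lineage, myeloid and developmental genes stand at 0.

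All 881 domains were touched by H3K9ac and by H3K27ac, against 90.8% and 92.8% of all 16567 H3K4me3 peaks and 99.1% and 98.9% of peaks of 1000 to 2000 bp. Acetylation also covered more of the domains than of the peaks of 1000 to 2000 bp. H3K9ac covered 86.7% ± 0.211 (SD, n = 2 H3K9ac replicates) of their base pairs and 77.4% ± 0.193 of those of the narrower peaks, and the difference was 9.34 and 9.31 percentage points in replicates 1 and 2. H3K27ac covered 86.4% ± 0.512 and 78.6% ± 0.445 (SD, n = 2), with differences of 7.81 and 7.90 points. In both cases the difference exceeded the spread between replicates, and domains were the higher class on 19 of 19 autosomes. From merged replicates the differences were 8.08 points for H3K9ac and 7.09 for H3K27ac, and they were 2.52 and 3.27 against peaks between 2000 and 3500 bp and 4.67 and 4.33 in the central 1000 bp. Merging H3K4me3 intervals up to 1000 bp apart lowered the H3K9ac difference to 4.20. In the central 1000 bp, H3K9ac covered 97.9% of peaks between 2000 and 3500 bp and 96.7% of domains, and H3K27ac 97.4% and 96.2%. Domains were thus the lower class there. Beyond their edges, 18.9% of the 2000 bp on either side of domains lay in H3K27ac peaks and 9.11% in H3K9ac peaks, against 10.3% and 4.65% beside the narrower peaks. With 2 libraries per assay the smallest 2-sided p of an exact sign-flip permutation test is 0.5, so no test was run.

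Lightly acetylated members were few. H3K27ac covered under 50% of the base pairs in 15 domains, among them those at Purb, a nucleic acid binding protein gene (47.9%), Cd47, an inhibitory ligand of phagocytes (46.8%), Lef1 (40.6%) and Adm, the adrenomedullin gene (26.6%). These 4 examples were chosen after their values were seen.

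**Figure D3:**
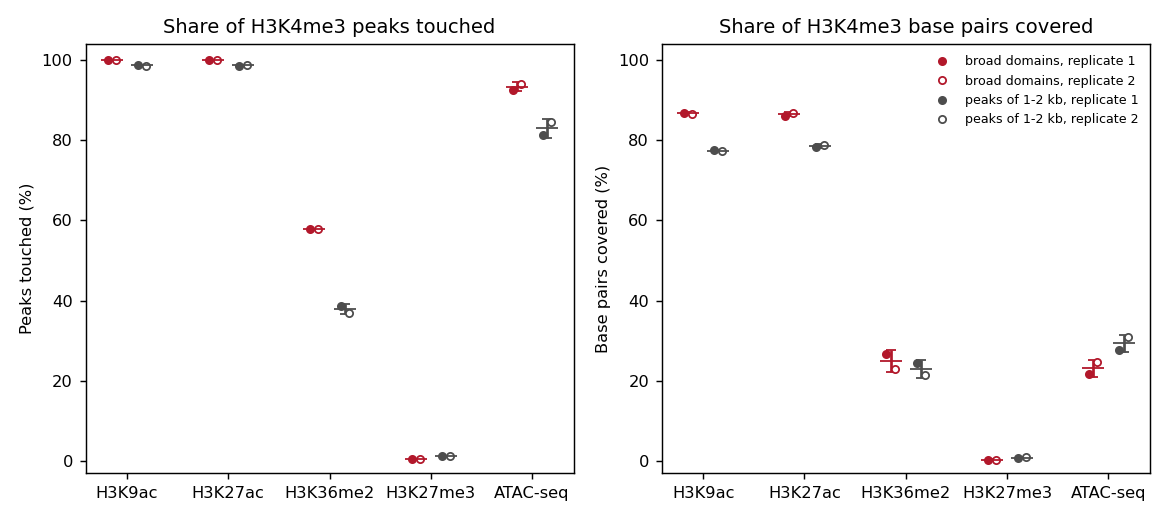
Share of broad domains and of 1-2 kb H3K4me3 peaks touched by each other mark (left, %) and share of their base pairs covered (right, %), per replicate of the other assay (points), with mean ± SD (n = 2). Domains are higher for both acetyl marks in both panels, whereas for ATAC-seq they are higher in the share touched (93.3% against 82.9% on average) and lower in base pairs covered (23.1% against 29.3%).

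Open chromatin took up a smaller part of the domains, although more domains than peaks of 1000 to 2000 bp contained some. An ATAC-seq peak of either replicate touched 842 domains (95.6%, exact 95% binomial interval 94.0 to 96.8%), 87.3% of the narrower peaks and 78.1% of all H3K4me3 peaks. The share was 96.0% for peaks between 2000 and 3500 bp, and in the central 1000 bp the order turned, with 65.4% of domains and 86.1% of the narrower peaks touched. Such intervals cover counting error alone, and a wider peak has more base pairs in which to touch another. Replicates of ATAC-seq covered 23.1% ± 2.14 (SD, n = 2) of the base pairs of domains and 29.3% ± 2.22 of the narrower peaks, with differences of -6.15 and -6.26 points. The difference was larger than the spread of the differences (SD 0.0771), and domains were lower on 19 of 19 autosomes.

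The number of ATAC-seq peaks rose with width more slowly than width itself. Domains held 1.92 ATAC-seq peaks on average and 0.415 per kb, against 0.952 and 0.63 in peaks of 1000 to 2000 bp. No ATAC-seq peak was found in 39 domains, 1 in 308, 2 in 321 and 3 or more in 213, so that 24.2% of domains and 0.262% of the narrower peaks had at least 3. From domains under 5000 bp to those of at least 7000 bp, the mean count went from 1.77 to 3.04 while the count per kb went from 0.437 to 0.345. Irf2bp2 and a domain touching Nipbl, the cohesin loader gene, held 8 each. The second domain held the start of the gene model LOC102634078 and spanned chr15:8441769-8447638. Junb, Tgif1 (a homeobox repressor) and the domain at Gm23834 held 6 each. Junb was the more open of these, with 68.6% of its 6505 bp in ATAC-seq peaks, against 13.8% at Gm23834.

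The domains with no ATAC-seq peak included both T cell receptor gamma domains that hold only segments of the locus. The 12124 bp over Trgc4 and the 7114 bp over Trgc2 and Trgj2 were almost fully acetylated, with 99.7% and 99.6% of base pairs in H3K27ac peaks. The domain at Ccr9, whose CpG-poor promoter is shown above, had no ATAC-seq peak in either replicate and 97.8% of its base pairs in H3K27ac peaks. The next widest were a domain of 6230 bp over Gm34306 and a domain of 5981 bp in Pcdh10, a protocadherin gene, both away from a gene start.

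**Figure D4:**
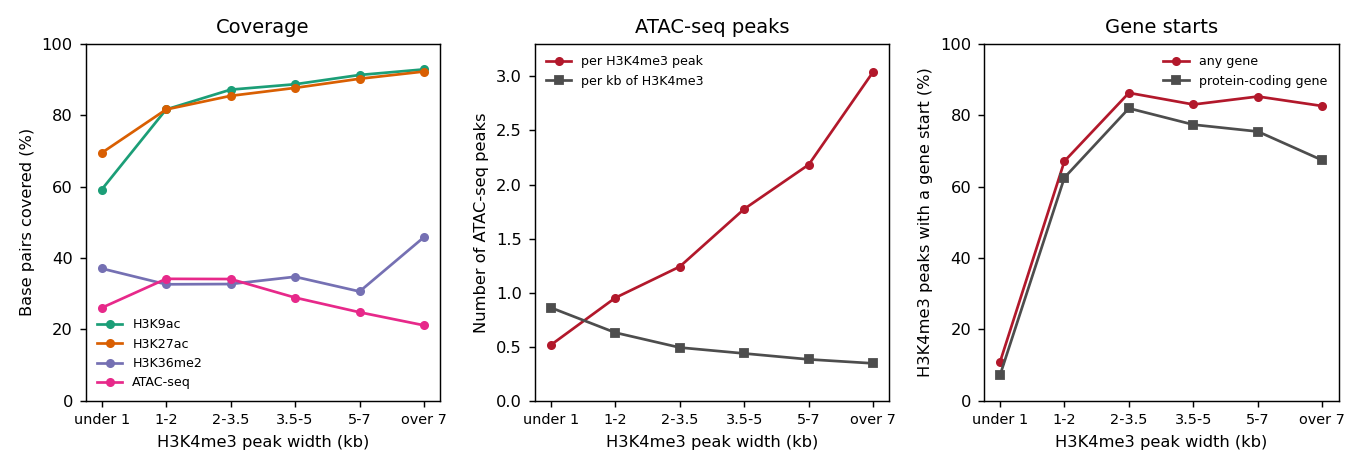
H3K4me3 peaks binned by width (kb, horizontal axis), with the share of base pairs covered by other marks (left, %), the mean number of ATAC-seq peaks per H3K4me3 peak and per kb (middle), and the share with a gene start (right, %), from merged replicates. Acetylation rises with width to 92.9% (H3K9ac) and 92.3% (H3K27ac) in peaks of 7000 bp and over, while ATAC-seq coverage falls from 34.2% at 1-2 kb to 21.1% and the share with any gene start stays between 82.6 and 86.3% above 2 kb.

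H3K36me2 touched more of the domains than of the narrower peaks, with little difference in base pairs. It touched 618 domains (70.1%), against 49.2% of the narrower peaks and 51.0% of all H3K4me3 peaks. The share was 61.6% for peaks between 2000 and 3500 bp. Its replicates covered 24.9% ± 2.69 (SD, n = 2) of domains and 22.9% ± 2.19 of the narrower peaks, with differences of 2.32 and 1.61 points. Domains were higher on 9 of 19 autosomes. In the central 1000 bp the order was the opposite, with 19.1% ± 3.86 and 21.8% ± 2.36 covered and differences of -1.72 and -3.85 points, so the direction for H3K36me2 depended on the part of the peak measured. In the 2000 bp on either side, the replicates covered 47.8% and 46.7% beside domains and 36.6% and 35.3% beside narrower peaks. Among the domains, 107 lay entirely in H3K36me2 peaks, including those at Ikzf1, Irf2bp2, Thy1, Lat and Myb, and no H3K36me2 was called at Ptprc, Cd3d, Ccr9, Cdkn1b or Pim1.

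H3K27me3 was rare in domains. It touched 7 of 881 (0.795%, exact 95% binomial interval 0.320 to 1.63%), against 1.77% of the narrower peaks (1.47 to 2.13%) and 1.68% of all H3K4me3 peaks. Of the peaks between 2000 and 3500 bp it touched 0.398%, a lower share than of the domains. The intervals cover counting error alone, since peaks of a library are no replicates. Only 3 of the 7 domains were touched in both H3K27me3 replicates. They were the domain at Smad7, an inhibitor of TGF-beta signalling, which lay in H3K27me3 over its whole 4461 bp in both, the domain at Lef1 (55.7% in replicate 1 and 76.2% in replicate 2), and a domain of 4449 bp in Pdgfra, a receptor tyrosine kinase gene, that lies 561 bp from a start (40.2% and 94.1%). These 3 had 35.3 to 40.6% of their base pairs in H3K27ac peaks, against 88.7% over all domains. The other 4, at Kdm6b, Sox4 (an HMG-box factor), Dipk2a and Erbin (an ErbB2-binding scaffold protein), were touched in 1 replicate each over 9.46 to 24.4% of their length. Lef1 and Erbin complete the 7 and are narrower than the 5 widest of them.

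Broad domains extended mainly downstream of gene starts, measured from the most upstream start. A gene start of any kind lay in 735 domains (83.4%), against 67.2% of the narrower peaks and 55.0% of all H3K4me3 peaks, and 783 protein-coding genes had a start in a domain. The share was 86.3% for peaks between 2000 and 3500 bp. In the central 1000 bp the order turned, with a start in 34.4% of domains and 60.6% of the narrower peaks. For genes with no strand in the tables used, either end was taken as a possible start, and with genes of known strand alone the shares were 69.5% and 55.5%. Starts of at least 2 protein-coding genes were present in 12.5% of domains, 4.67% of the narrower peaks and 16.2% of peaks between 2000 and 3500 bp. A start of a long noncoding RNA was present in 20.7% of domains, 8.92% of the narrower peaks and 14.5% of peaks between 2000 and 3500 bp. In 472 domains with starts of only 1 protein-coding gene of known strand, medians of 3092 bp downstream and 1152 bp upstream were found. In 3116 narrower peaks of the same kind they were 1067 and 491 bp. Distance was taken from the most upstream start of that gene in the peak. Where a gene had several starts, this choice placed more base pairs downstream. The longer part was downstream in 90.5% of these domains and in 92.3% of the narrower peaks.

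Aligned at these starts, open chromatin was wider in domains. Within 500 bp of the start, ATAC-seq peaks covered 58.1% and 62.4% of base pairs in replicates 1 and 2, against 45.9% and 50.2% at the narrower peaks, the opposite order to that over whole peaks. The share of starts with an ATAC-seq peak within 500 bp was 94.1% in both classes with the replicates merged. From 500 to 2500 bp downstream, ATAC-seq covered 13.5% and 16.2% in domains and 1.89% and 2.35% at the narrower peaks. H3K27ac in the same stretch covered 81.6% and 81.9%, against 18.8% and 19.2%. The classes were chosen by H3K4me3 width, so this stretch lay mostly inside H3K4me3 in domains and mostly outside it at the narrower peaks. With replicates merged, H3K4me3 covered 94.4% and 29.5% of it.

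Around the same starts, H3K36me2 was lower just downstream and higher upstream at domains than at the narrower peaks. From 500 to 2500 bp downstream of the start it covered 28.3% and 23.1% of base pairs in replicates 1 and 2 at domains, against 40.5% and 38.5% at the narrower peaks. By the choice of the classes, this stretch lay mostly inside H3K4me3 at domains and mostly outside it at the narrower peaks. From 2500 to 5000 bp upstream H3K36me2 covered 41.5% and 40.3% at domains, against 20.8% and 19.6%. Both differences were larger than those between replicates. With both replicates merged, H3K27me3 covered 2.51% of base pairs from 5000 to 10000 bp upstream of domains and 10.2% upstream of the narrower peaks.

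**Figure D5:**
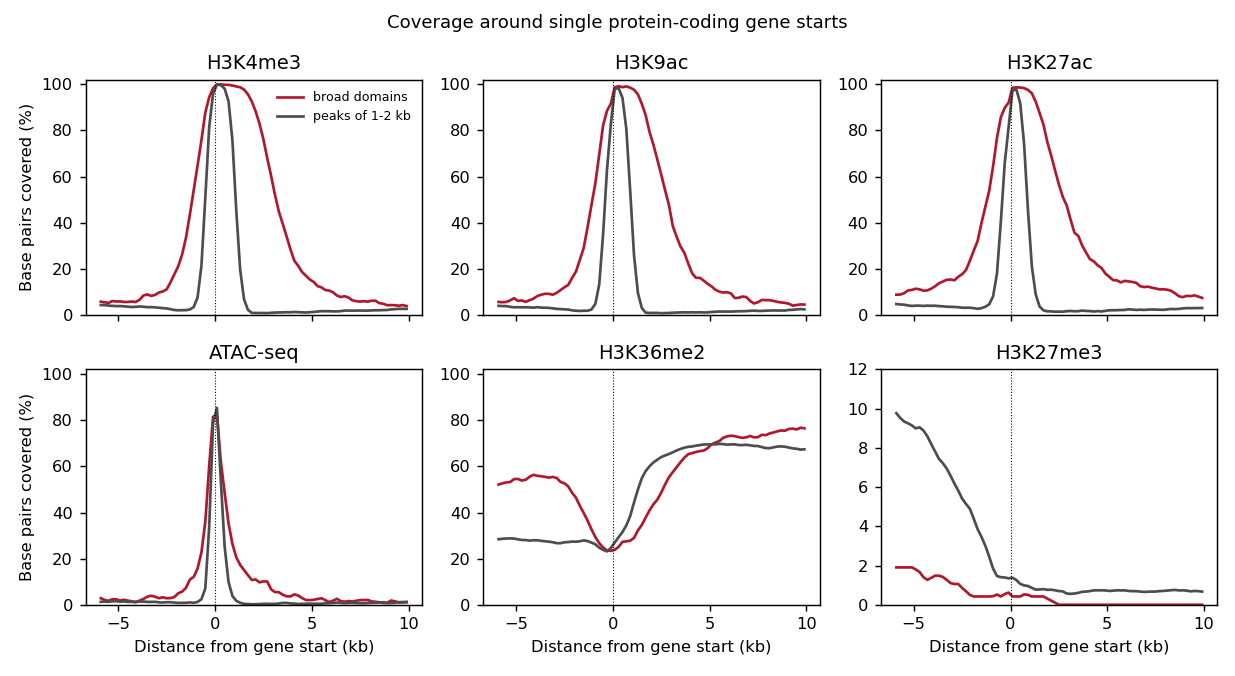
Share of base pairs covered by each mark (vertical axis, %, merged replicates, 200-bp bins) against distance from the start in kb, positive downstream. Shown are 472 broad domains and 3116 H3K4me3 peaks of 1-2 kb with starts of only 1 protein-coding gene, of known strand. Distance is taken from the most upstream start of that gene in the peak. The H3K27me3 panel has its own scale. Both acetyl marks extend further on the downstream side in domains, as does H3K4me3, by whose width the classes were chosen, and H3K36me2 upstream of the start stands higher at domains than at the narrower peaks.

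A gene start was absent from 146 domains, of which 105 lay in or across a gene body and 41 touched no annotated gene. Of these, 117 were over 3000 bp from the nearest start, with a median distance of 11949 bp for all 146. They resembled the other domains in width (medians of 4130 and 4202 bp). H3K27ac covered 91.0% and 91.7% of their base pairs in replicates 1 and 2, against 85.1% and 85.8% in domains with a start. ATAC-seq covered less, with 14.5% and 16.9% against 22.9% and 26.1%. An ATAC-seq peak touched 82.2% of domains without a start and 98.2% of those with one, and 26 of the 39 domains with no ATAC-seq peak lacked a start.

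The widest domain without a start (9976 bp, chr15:66795112-66805087) touched Tg, the thyroglobulin gene, and Sla, which encodes an adaptor that dampens T cell receptor signalling. The second (8160 bp) lay in St6gal2, a sialyltransferase gene, and the fourth (7695 bp) in Nr3c1, the glucocorticoid receptor gene. The fifth (7177 bp) lay in Stx8, a gene of vesicle fusion. The third (8050 bp, chr8:123426143-123434192) touched no gene. ATAC-seq covered 95.9% and 99.3% of it in replicates 1 and 2, against at most 39.6% (merged replicates) of the other 4. H3K36me2 covered all of it in both replicates, and H3K9ac and H3K27ac each covered at least 99.6% in each replicate. Of all domains, 68 had at least 50% of their base pairs in ATAC-seq peaks. A domain of 4149 bp that touched no gene (chr14:19415599-19419747, named after its values were seen) was covered by ATAC-seq over its whole length in both replicates. H3K9ac and H3K27ac covered from 98.9 to 100% of it per replicate, and no H3K36me2 peak touched it. The positions were used as deposited. Whether repeated sequence or extra copies raise the coverage of this domain or of the chr8 domain was not tested.

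Domains were spread over all 19 autosomes, from 3.40% of the H3K4me3 peaks of chromosome 14 to 6.56% of those of chromosome 11. A second domain lay within 5000 bp of 32 of them and within 50000 bp of 150 (17.0%).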

How the data were processed

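ChIP-seq and ATAC-seq peak lists of EL4 cells were analysed for 12 of 15 samples, 2 replicates per assay. The input and RNA-seq samples were not used here. According to the methods and the submitters' processing notes, the authors aligned reads with STAR (version 2.5), kept unique alignments, treated duplicates with Picard, called H3K4me3, H3K9ac, H3K27ac and ATAC-seq peaks with macs2 and H3K27me3 and H3K36me2 peaks with Epic, per replicate, with input as control for ChIP-seq. The deposited lists hold the chromosome, start and end of each interval in GRCm38, with no score, signal or read count, so depth is unknown and peak heights could not be compared. Epic intervals follow 200-bp bins, which limits the precision of their edges.

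The positions were read as deposited. Replicates of an assay were merged, and values per replicate were computed from each list alone. Shares touched need at least 1 bp of overlap. Coverage is the summed base pairs inside the other list over the summed width. Gene starts came from RefSeq tables of GRCm38.p6, with a strand for 16457 of 20665 autosomal protein-coding genes, and for other genes either end was counted. Promoter sequences of chromosome 18 were not used here. Promoters eligible for printing were the first 6, by domain width, of genes at the 20 widest domains or in the lists whose bases lie outside protein-coding genes, and 4 of these are shown. The members and lists were chosen with earlier results of these data known. Named genes were those at the 20 widest domains, list members in a domain, the nearest 3 on either side of the width limit, and the 5 widest domains with H3K27me3, with no ATAC-seq peak, with the most ATAC-seq peaks and with no gene start. Of domains with no H3K27ac peak there were 0. Of the 20 widest domains, 1 is not reported here. Other genes named, among them Erbin and list members in narrower peaks, were chosen after their values were seen. Since peaks of a library are no replicates, no test was run. Interval counting was checked on simulated lists against bedtools 2.31.1 (6 of 6 checks passed). Python 3.11.15, numpy 2.4.6, pandas 2.3.3 and scipy 1.17.1 were used. Alternatives were other ways of merging, other width limits, other overlap rules and each replicate left out.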

Additional observations from a re-analysis of the deposited data

Results flagged for a closer look

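Chromosome X lies outside the autosomal choice of the members. There, 17 of 496 H3K4me3 peaks with intervals of both replicates were at least 3500 bp wide, the widest measuring 5713 bp, although the methods state that reads of the sex chromosomes were discarded. On unplaced scaffolds, 3 of 48 such peaks reached this width. None of them entered a comparison.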

How the results depend on the processing

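The number of domains, 881, was within 1.5 times of this value with the intersected H3K4me3 lists, with either list left out (771 to 798) and with intervals up to 1000 bp apart merged, and it was 1506, 536 and 209 with minimum widths of 3000, 4000 and 5000 bp. Coverage differences are given in percentage points, domains minus peaks of 1000 to 2000 bp, from merged lists. For ATAC-seq the difference was -6.98, and it was -8.16 with intersected H3K4me3 lists, -8.68 with intervals up to 1000 bp apart merged, -10.5 with a minimum width of 5000 bp, -11.0 in the central 1000 bp and -7.70 among peaks with a gene start, and from -7.53 to -6.15 with a replicate left out. Within 500 bp of the start, in peaks with starts of only 1 protein-coding gene of known strand, it turned to 12.1. For H3K9ac the difference was 8.08, and under the same settings 6.51, 4.20, 10.1, 4.67 and 7.19, with 2.52 against peaks of 2000 to 3500 bp and 7.21 to 9.34 with a replicate left out. For H3K27ac it was 7.09, and 5.90, 5.50, 9.22, 4.33 and 8.53, with 3.27 against peaks of 2000 to 3500 bp and 6.43 to 7.90 with a replicate left out. For H3K36me2 it was 2.30, and 3.66 with intervals up to 1000 bp apart merged and 3.86 among peaks with a gene start, 1.47 to 2.32 with a replicate left out, and it turned to -3.18 in the central 1000 bp.

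The share touched by ATAC-seq differed by 8.27 points, by 12.7 with intersected ATAC-seq lists and by 7.46 to 11.2 with a replicate left out, and it turned to -20.7 in the central 1000 bp. The share with a gene start differed by 16.3 points, by 13.9 with protein-coding genes or genes of known strand alone, by 10.7 with gene end windows and by 14.8 to 15.6 with a replicate left out, and it turned to -26.2 in the central 1000 bp. In domains the start lies away from the midpoint, as given above. Settings limited to peaks with a gene start, to 500 bp around starts and to genes of known strand were chosen after seeing the data. No paired analysis was possible because no result comes from a test between groups of samples, and the differences given per replicate lie within a library. Without read counts, a boundary reflects the calling threshold and the depth of its library.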
